A study of Homo sapiens with 4 samples.

Results

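The genes described here are 10 members of the insulin-like growth factor (IGF) system: the binding proteins IGFBP2, IGFBP3, IGFBP4, IGFBP5 and IGFBP6, the protease PAPPA, the stanniocalcins STC1 and STC2, the ligand IGF2 and the receptor IGF1R. They were chosen by name, and all 10 were measured, each by 1 probe set that names that gene alone, among 17687 genes on Clariom S Human arrays. The RNA came from KGN cells, a granulosa cell line that was established from a human granulosa cell tumour, so a single tumour-derived line stands for the tissue. The 4 groups, with 1 array each, were YAP/TAZ siRNA with 8Br-cAMP (siYT+8Br-cAMP), YAP/TAZ siRNA alone (siYT), control siRNA with 8Br-cAMP (siNC+8Br-cAMP) and control siRNA alone (siNC). The siRNAs to YAP and TAZ were used at 5 nM each and the control siRNA at 10 nM. The medium was changed 48 h after transfection, and 8Br-cAMP, a form of cyclic AMP that enters cells, was present at 0.5 mM or left out for the next 24 h.

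IGF1 and IGF2 are growth factors that act through the receptor IGF1R, and in the ovary they add to the action of follicle-stimulating hormone on granulosa cells. IGF binding proteins hold the ligands in the extracellular fluid and keep them from the receptor. PAPPA, the pregnancy-associated plasma protein A, is a secreted metalloprotease that frees IGF by cutting IGFBP4 and IGFBP5, and the glycoproteins STC1 and STC2 bind PAPPA and block it. YAP and TAZ are coactivators of transcription that the Hippo pathway holds back, and cyclic AMP carries the gonadotropin signal inside granulosa cells.

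Levels are the deposited RMA values in log2 units, and each difference subtracts one array from another. A difference of at least 1, which is 2-fold, was called when the higher of its values was at least 6.22, the median of all gene values and called the level filter here. For calls in both media, after both siRNAs or of the difference of the differences, the highest value over all arrays had to reach the filter. A gene counted in both media or after both siRNAs can therefore lack a call in 1 of them. With 1 array per group no difference, and no gap between arrays in an order of levels, could be set against a spread between cultures. An additive limma model with siRNA and 8Br-cAMP as terms, fitted to all 17687 genes, gave Benjamini-Hochberg adjusted p-values. It has 1 residual degree of freedom, its error contains the difference of the differences, and it is not a test between replicates. With log2 of the linear value plus 32 in place of log2, the model called 0 of all genes for either term, and all of its calls among the 10 genes were lost (limma, adjusted p from 0.0589 to 0.219) with nearly the same estimates. Only genes that passed this model at 0.05 are said to have risen or fallen.

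The siRNA targets were lower in siYT than in siNC in both media. The YAP gene, YAP1, was at 6.29 in siYT+8Br-cAMP and 6.80 in siYT, against 9.46 in siNC+8Br-cAMP and 9.48 in siNC. The TAZ gene, WWTR1, was at 5.35 and 5.45 in the same siYT arrays, against 9.13 and 7.58 in the siNC arrays. Of 15 measured granulosa markers, 7 to 9 reached the level filter on an array, among them GATA4 and INHBA on all 4 arrays. FOXL2, a defining transcription factor of granulosa cells, stayed between 4.13 and 5.14 and INHA, the inhibin alpha subunit, between 5.12 and 5.70, both under the filter. Of 5 endothelial markers, 1 reached the filter on the siNC array and 0 on the others. Among 5 epithelial markers, KRT7 (9.63 to 11.21) and KRT8 (9.26 to 10.33) reached the filter on all 4 arrays, and the others stayed under it. KRT7 was called higher with 8Br-cAMP after siYT (1.02) but not after siNC (0.82). All 6 proliferation markers were called lower in siYT than in siNC, with a summed log2 level of 48.9 in siYT and 66.8 in siNC, and 5 of 6 were called lower with 8Br-cAMP, with sums of 43.2 in siYT+8Br-cAMP and 63.2 in siNC+8Br-cAMP. Of 8 theca and stroma markers, 4 were called higher in siYT than in siNC and 2 were called higher with 8Br-cAMP too, with sums of 66.4 and 72.5 in the siYT arrays with and without 8Br-cAMP, against 57.7 and 59.3 in the siNC arrays. Of 4 leukocyte markers, 1 was called higher in both media, CD68, at 13.15 and 12.69 in these siYT arrays against 10.33 and 10.77 in the siNC arrays, and the other 3 stayed under the level filter. Of the 15 granulosa markers, 3 were called higher and 1 lower in siYT than in siNC, and 4 higher and 2 lower with 8Br-cAMP. They summed to 128.1 and 113.2 in the siYT arrays and to 119.3 and 105.1 in the siNC arrays. CYP19A1, the aromatase, was at 17.56 and 14.26 against 14.26 and 5.04. Its difference without 8Br-cAMP, 9.23, is larger than the gap between the 2 sums in that medium. FST was called lower in both media, by -1.62 with and -3.28 without 8Br-cAMP. No deposited value was 0, the lowest being 1.39. The shares of all genes called stand with each comparison. The part of these shifts in the siRNA differences below was not tested, and in RNA of a whole culture fewer cells of a kind and less RNA per cell cannot be told apart.

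Of the 10 genes, 8 were called in at least 1 of the 4 differences, where 24.7% of all genes were. Only genes past the level filter could be called, which were 9750 of all 17687 and all of the 10 except IGF2. Part of that gap in shares therefore reflects level. There were 2 main patterns. The receptor IGF1R, the protease PAPPA, its substrate IGFBP4 and its inhibitor STC1 were higher with 8Br-cAMP after either siRNA, whereas STC2, the other inhibitor, and IGFBP3 were lower after YAP/TAZ siRNA in either medium. For IGFBP2, IGFBP3 and STC1, the difference with 1 agent was at least 1 log2 unit apart with and without the other. IGF2 did not reach the level filter on any array.

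**Figure D1:**
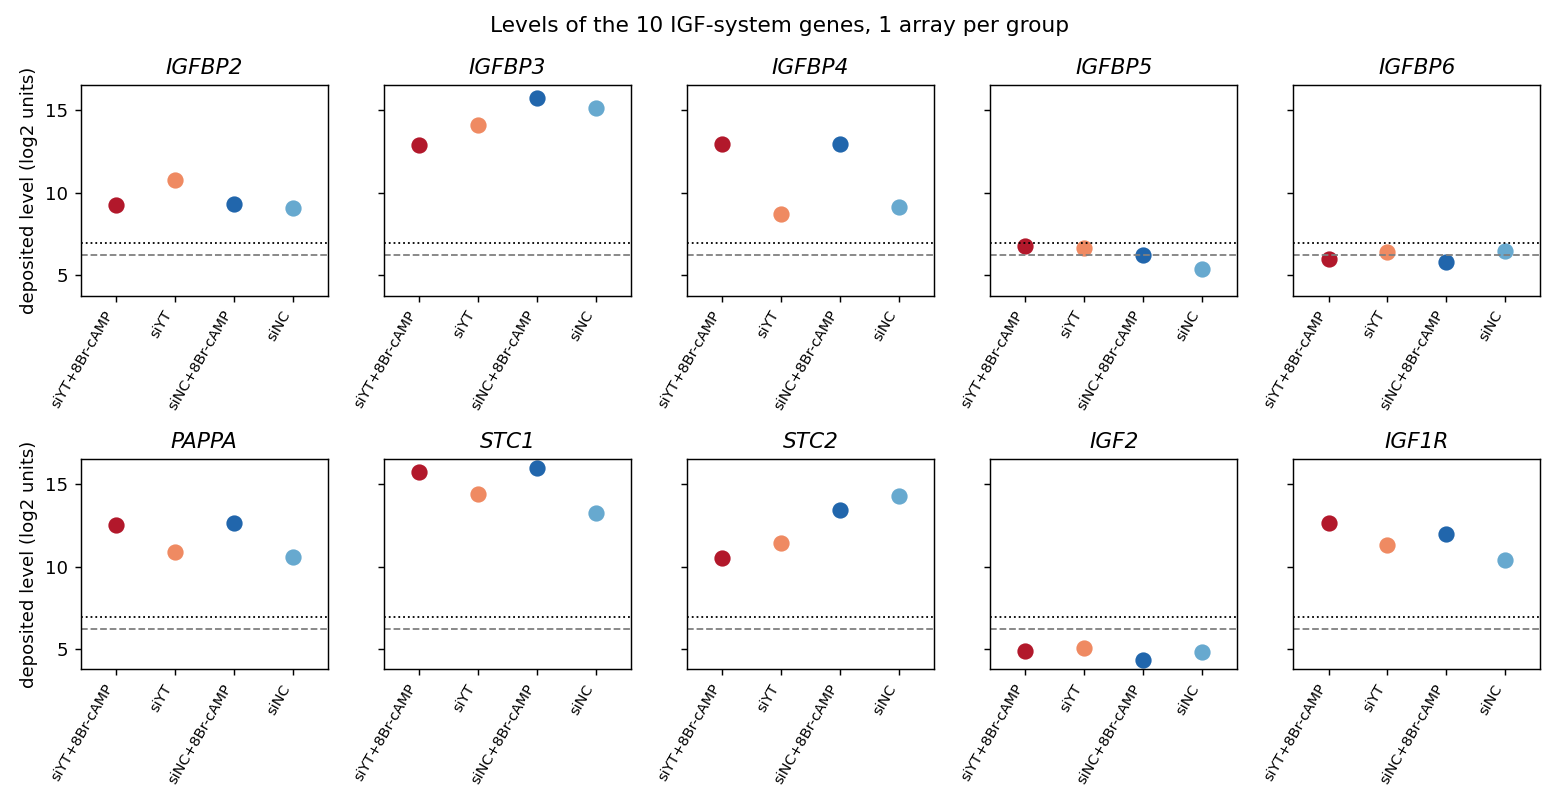
Deposited log2 level (vertical axis) of each of the 10 genes on the 4 arrays (1 point per array; horizontal axis, group). The dashed line is the level filter at 6.22 and the dotted line the 95th percentile of the negative control probe sets at 6.95; IGFBP4 has both 8Br-cAMP arrays, at 12.94 and 12.99, above both others, STC2 both siYT arrays under both siNC arrays, and IGFBP5, IGFBP6 and IGF2 lie under the dotted line throughout.

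The first comparison concerned 8Br-cAMP. After siYT, 4 of the 10 genes were called higher and 2 lower, where 4.06% of all genes were called higher and 4.15% lower. After siNC, 4 were called higher and 0 lower, where 4.32% and 3.74% of all genes were. The same 4 genes, IGFBP4, PAPPA, STC1 and IGF1R, were called higher after both siRNAs, where 1.74% of all genes were called higher in both cases. The median 8Br-cAMP difference of the 10 genes was -0.04 after siYT and 0.74 after siNC, against -0.02 and -0.03 over all genes. These 2 differences share no array. In the additive model 3 of the 10 genes rose with 8Br-cAMP and 0 fell, where 1.15% of all genes rose and 0.662% fell.

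IGFBP4, the main substrate of PAPPA, showed the largest difference of the 10 genes. It was at 12.94 in siYT+8Br-cAMP and 8.69 in siYT, against 12.99 in siNC+8Br-cAMP and 9.16 in siNC. Both arrays with 8Br-cAMP lay near 13 and both without it near 9, and within each medium the siRNAs differed by less than 0.5. The 8Br-cAMP difference was 4.25 after siYT, which is 19.0-fold, and 3.82 after siNC, which is 14.2-fold. Of the 9750 genes past the level filter, 0.267% after siYT and 0.297% after siNC had a positive difference at least as large. IGFBP4 rose with 8Br-cAMP in the additive model, by 4.04 with an SE of 0.313 (limma, adjusted p = 0.000148).

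PAPPA, the protease that cuts IGFBP4, was at 12.53 in siYT+8Br-cAMP and 10.87 in siYT, against 12.62 in siNC+8Br-cAMP and 10.56 in siNC. It was 3.16-fold higher with 8Br-cAMP after siYT and 4.16-fold higher after siNC, and the siRNAs differed by 0.31 without and -0.09 with 8Br-cAMP. PAPPA rose by 1.86 with an SE of 0.312 (limma, adjusted p = 0.0150). Substrate and protease had the same order of media on both siRNA backgrounds, with no called siRNA difference for either gene.

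STC1, a glycoprotein that blocks PAPPA, was at 15.71 in siYT+8Br-cAMP and 14.38 in siYT, against 15.96 in siNC+8Br-cAMP and 13.28 in siNC. Its 8Br-cAMP difference was 1.34 after siYT, which is 2.53-fold, and 2.68 after siNC, which is 6.42-fold. STC1 rose with 8Br-cAMP by 2.01 with an SE of 0.371 (limma, adjusted p = 0.0244). The levels with 8Br-cAMP lay within 0.25 of each other, and it was the arrays without 8Br-cAMP that were further apart. IGF1R, the receptor of both IGFs, was at 12.61 in siYT+8Br-cAMP and 11.33 in siYT, against 11.95 in siNC+8Br-cAMP and 10.40 in siNC. It was 2.43-fold higher with 8Br-cAMP after siYT and 2.93-fold higher after siNC. Its additive difference of 1.42 with an SE of 0.309 did not pass over all genes (limma, adjusted p = 0.0510), but it passed under 5 of 6 alternative settings of the model, with adjusted p from 0.0174 to 0.0408 in those 5.

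The remaining genes were not called higher with 8Br-cAMP after either siRNA. STC2 differed by -0.92 after siYT and -0.86 after siNC, just short of the size of a call (limma, adjusted p = 0.198 over both). IGFBP6, a binding protein that prefers IGF2, differed by -0.41 and -0.69, with levels from 5.80 to 6.49 that straddle the level filter. IGFBP5, the second substrate of PAPPA, differed by 0.10 and 0.87. IGFBP2 and IGFBP3 were called lower after siYT and are described with the difference of differences.

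**Figure D2:**
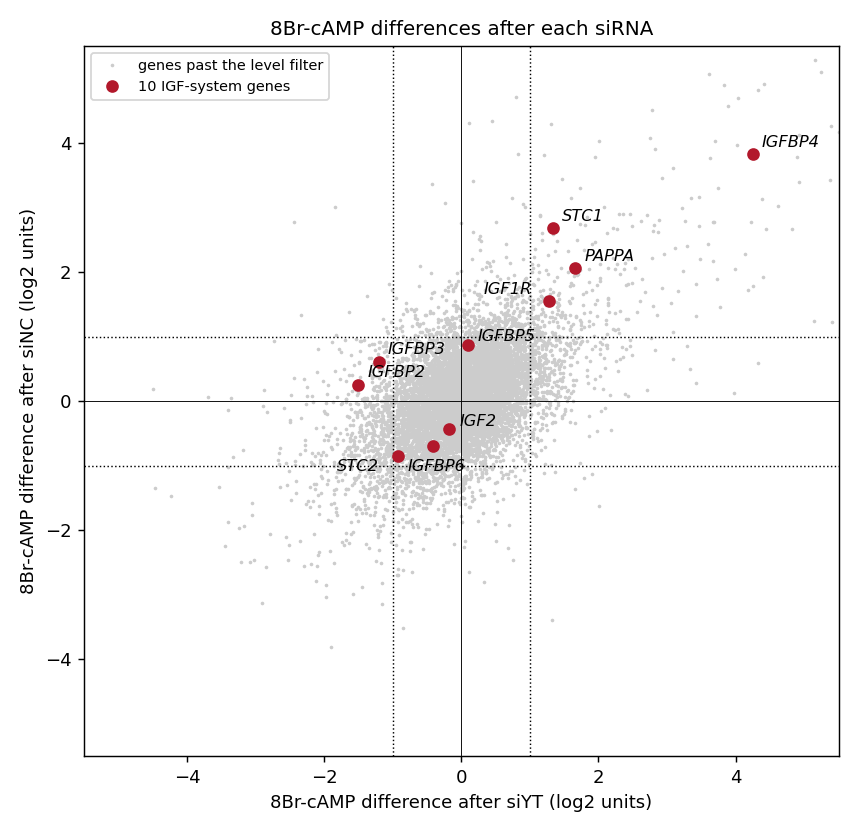
8Br-cAMP difference in log2 units after siYT (horizontal axis) and after siNC (vertical axis), for the 10 genes (red, named) and for genes past the level filter (grey; 10 of 9750 lie outside the axes). Dotted lines mark a difference of 1 in either direction; IGFBP4, PAPPA, STC1 and IGF1R lie past them on both axes, while IGFBP2 and IGFBP3 lie past -1 on the horizontal axis alone.

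The promoter windows of IGFBP4 and PAPPA are shown because these genes were higher together with 8Br-cAMP. Windows of 250 bases before to 50 bases after the transcript start were taken from RefSeq (GRCh38.p14). The search covered 10 windows of 8 of the 10 genes and left out STC1 and IGF2. Searched on both strands were a TEAD motif (GGAATG), the full cyclic AMP response element (TGACGTCA), its core (TGACG, which the full element contains), an AP-1 motif (TGANTCA), an NR5A motif (CAAGGTCA) and the TATA box (TATAAA). Capitals mark matches. The IGFBP4 window is chr17:40443200-40443499 on the plus strand and the PAPPA window chr9:116153541-116153840 on the plus strand.
IGFBP4: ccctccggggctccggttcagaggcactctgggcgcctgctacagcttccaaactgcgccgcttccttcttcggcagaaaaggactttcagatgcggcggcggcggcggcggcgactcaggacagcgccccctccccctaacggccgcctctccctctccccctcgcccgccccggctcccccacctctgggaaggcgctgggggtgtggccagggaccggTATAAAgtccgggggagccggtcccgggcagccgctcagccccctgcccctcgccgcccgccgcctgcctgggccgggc
PAPPA: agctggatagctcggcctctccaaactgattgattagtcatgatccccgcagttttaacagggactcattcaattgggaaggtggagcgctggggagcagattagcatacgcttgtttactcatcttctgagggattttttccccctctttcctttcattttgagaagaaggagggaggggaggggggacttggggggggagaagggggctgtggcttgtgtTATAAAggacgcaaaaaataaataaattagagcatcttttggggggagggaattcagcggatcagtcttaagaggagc
Each held 1 TATA box, which began at base -29 from the start in IGFBP4 and at base -28 in PAPPA, and no other match. A TATA box on either strand was present in 11.5% of all 35116 windows in the table. The full response element was found in 1.85% and its core in 24.6% of all windows, and neither was found in the 10 windows searched for 8 of the 10 genes. STC1, which was also higher with 8Br-cAMP, was left out of the search, so its promoter was not tested for any of these motifs. An absent match concerns these letters in these 300 bases alone.

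The second comparison concerned YAP/TAZ siRNA. With 8Br-cAMP, 0 of the 10 genes were called higher and 2 lower, where 5.52% of all genes were called higher and 5.94% lower. Without 8Br-cAMP, 3 were called higher and 2 lower, where 7.6% and 7.32% of all genes were. STC2 and IGFBP3 were called lower in both media, where 3.89% of all genes were called lower in both. In the additive model these 2 genes fell and 0 of the 10 rose, where 4.67% of all genes fell and 4.3% rose. The median siRNA difference of the 10 genes was -0.05 with and 0.28 without 8Br-cAMP, against 0.06 and 0.02 over all genes. The positive control probe sets had median siRNA differences of -0.35 with and -0.36 without 8Br-cAMP. Centring the arrays on them moved every siRNA difference by 0.38 with and 0.41 without 8Br-cAMP, so that without it 4 of the 10 genes were called higher and 1 lower, and over all genes 2484 were called higher and 717 lower in place of 1345 and 1294. With 8Br-cAMP the counts over all genes were then 1953 higher and 567 lower, in place of 977 and 1051.

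STC2, the inhibitor that binds PAPPA covalently, had the largest siRNA differences. It was at 10.52 in siYT+8Br-cAMP and 11.45 in siYT, against 13.44 in siNC+8Br-cAMP and 14.30 in siNC. Both siYT arrays lay below both siNC arrays. The siRNA difference was -2.92 with 8Br-cAMP, which is 7.56-fold lower, and -2.85 without it, which is 7.23-fold lower, so that the values in the 2 media differed by -0.07. STC2 fell by 2.89 with an SE of 0.306 (limma, adjusted p = 0.000347). Of the genes past the level filter, 1.17% with and 1.497% without 8Br-cAMP had a negative difference at least as large. The other inhibitor of PAPPA, STC1, had siRNA differences of -0.25 with and 1.10 without 8Br-cAMP.

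IGFBP3, the most abundant IGF carrier in human plasma, was at 12.91 in siYT+8Br-cAMP and 14.12 in siYT, against 15.78 in siNC+8Br-cAMP and 15.16 in siNC. Both siYT arrays lay below both siNC arrays, further apart with 8Br-cAMP. The siRNA difference was -2.86 with 8Br-cAMP, which is 7.28-fold lower, and -1.05 without it, which is 2.07-fold lower. IGFBP3 fell by 1.96 with an SE of 0.417 (limma, adjusted p = 0.0162). After centring on the positive controls its difference without 8Br-cAMP was -0.64 and was not called.

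The windows of STC2 and IGFBP3 are shown because these 2 genes were lower in both media, and that of IGFBP5 because it holds 1 of the 2 TEAD motifs found. They are chr5:173328365-173328664 for STC2, chr7:45921223-45921522 for IGFBP3 and chr2:216695500-216695799 for IGFBP5, all on the minus strand.
STC2: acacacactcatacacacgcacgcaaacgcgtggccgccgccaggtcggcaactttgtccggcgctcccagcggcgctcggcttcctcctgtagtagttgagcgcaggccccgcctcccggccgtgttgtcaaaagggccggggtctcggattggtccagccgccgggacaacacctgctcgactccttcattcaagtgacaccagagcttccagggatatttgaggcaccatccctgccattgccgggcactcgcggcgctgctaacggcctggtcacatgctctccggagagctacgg
IGFBP3: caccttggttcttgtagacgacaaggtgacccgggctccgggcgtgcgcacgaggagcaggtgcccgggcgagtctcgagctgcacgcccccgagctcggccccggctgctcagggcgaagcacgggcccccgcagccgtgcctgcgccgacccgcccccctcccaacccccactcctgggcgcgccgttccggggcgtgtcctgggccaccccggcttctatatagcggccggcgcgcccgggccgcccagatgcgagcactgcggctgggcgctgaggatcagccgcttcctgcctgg
IGFBP5: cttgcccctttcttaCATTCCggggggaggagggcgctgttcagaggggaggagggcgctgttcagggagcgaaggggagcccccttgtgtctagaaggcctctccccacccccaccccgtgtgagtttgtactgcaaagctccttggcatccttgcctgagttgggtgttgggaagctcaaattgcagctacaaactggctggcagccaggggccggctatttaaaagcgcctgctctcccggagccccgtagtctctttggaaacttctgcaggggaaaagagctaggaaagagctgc
The TEAD motif, the letters bound by the DNA-binding partners of YAP and TAZ, began at base -235 in IGFBP5. The other match was in IGFBP6, at base -101. The motif was present in 14% of all windows, and no motif searched was found in the windows of STC2 and IGFBP3.

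The genes called higher with YAP/TAZ siRNA were called only in the medium without 8Br-cAMP. IGFBP2, a binding protein with a preference for IGF2, was at 10.78 in siYT and 9.07 in siNC, 3.28-fold higher, but at 9.28 in siYT+8Br-cAMP and 9.33 in siNC+8Br-cAMP. STC1 was 2.14-fold higher in siYT than in siNC, and differed by -0.25 with 8Br-cAMP. IGFBP5 was at 6.75 in siYT+8Br-cAMP and 6.65 in siYT, against 6.25 in siNC+8Br-cAMP and 5.38 in siNC. Both siYT arrays of IGFBP5 lay above both siNC arrays, with differences of 0.50 with and 1.27 without 8Br-cAMP. All 4 levels of IGFBP5 were below 6.95, which 95% of the negative control probe sets did not exceed. The size of its difference therefore depends on the background, and no call was made when 6.95 served as the filter. None of these 3 genes passed the additive model for the siRNA (limma, adjusted p = 0.275 for IGFBP2, 0.579 for STC1 and 0.137 for IGFBP5).

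IGF1R differed by 0.66 with and 0.93 without 8Br-cAMP and was not called (limma, adjusted p = 0.155). Its order of levels was siYT+8Br-cAMP, siNC+8Br-cAMP, siYT and siNC, from high to low. Centred on the positive controls, the differences of IGF1R were 1.03 and 1.34 and both were called. IGFBP4 differed by -0.05 with and -0.48 without 8Br-cAMP, and IGFBP6 by 0.19 and -0.09. IGF2 was at 4.85 in siYT+8Br-cAMP and 5.04 in siYT, against 4.35 in siNC+8Br-cAMP and 4.79 in siNC, so no fold is given for it.

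**Figure D3:**
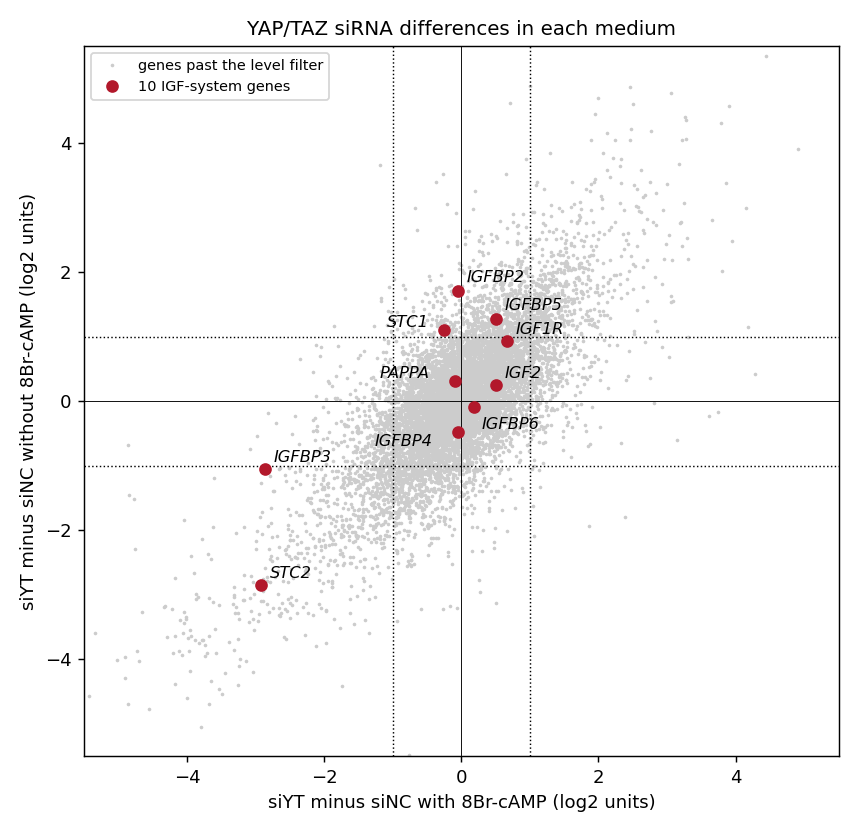
Difference of siYT minus siNC in log2 units with 8Br-cAMP (horizontal axis) and without it (vertical axis), for the 10 genes (red, named) and for genes past the level filter (grey; 13 of 9750 lie outside the axes). Dotted lines mark a difference of 1 in either direction; STC2 and IGFBP3 lie past -1 on both axes, and IGFBP2, IGFBP5 and STC1 lie past 1 on the vertical axis alone.

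The third comparison set the siRNA difference with 8Br-cAMP against that without it. The same number results when the 8Br-cAMP difference after siNC is subtracted from that after siYT. It was called for 3 of the 10 genes, all negative, where 4.82% of all genes were called negative. Its median was -0.33 over the 10 genes and 0.01 over all genes. Over all genes 631 were called positive and 853 negative, a split that became 801 and 686 after centring each array on its median, and the 3 genes were called negative under every scaling run.

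IGFBP3 had a difference of differences of -1.81, since 8Br-cAMP came with a lower level after siYT (-1.20) and with a higher level, short of a call, after siNC (0.61). IGFBP2 had one of -1.76. It was highest in siYT, and the other 3 arrays lay between 9.07 and 9.33, so that 8Br-cAMP differed by -1.51 after siYT and by 0.26 after siNC. STC1 had one of -1.35. It was lowest in siNC, and either agent alone was above that level, by 2.68 for 8Br-cAMP and by 1.10 for the siRNA, while siYT+8Br-cAMP was 0.25 below siNC+8Br-cAMP. Of the genes past the level filter, 1.68%, 1.85% and 4.09% had a negative value at least as large as those of IGFBP3, IGFBP2 and STC1. For IGFBP5 the value was -0.77 and not called. PAPPA (-0.40), IGFBP4 (0.43), IGF1R (-0.27) and STC2 (-0.07) were not called either.

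The other genes of the IGF pathway came from a list of 39, of which 34 were measured and 25 reached the level filter on at least 1 array. With YAP/TAZ siRNA, 1 was called higher and 3 lower with 8Br-cAMP, where 5.52% of all genes were called higher and 5.94% lower. Without 8Br-cAMP, 7 were called higher and 3 lower, where 7.6% and 7.32% of all genes were. For 8Br-cAMP, 2 were called higher and 4 lower after siYT (4.06% and 4.15% of all genes), and 2 higher and 2 lower after siNC (4.32% and 3.74% of all genes). The median differences lay between -0.13 and 0.09. In the additive model 1 rose and 2 fell with the siRNA (HTRA1, and ADAM12 with ADAMTS1), where 4.3% of all genes rose and 4.67% fell, and 1 rose and 0 fell with 8Br-cAMP (IGFBP1), where 1.15% rose and 0.662% fell. In all, 14 of the 34 were called in at least 1 of the 4 differences, where 24.7% of all genes were. Only genes past the level filter could be called, 25 of these 34 and 9750 of all 17687.

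Secreted proteases held the largest of these differences. HTRA1, a secreted serine protease, was at 14.76 in siYT+8Br-cAMP and 14.79 in siYT, against 12.15 in siNC+8Br-cAMP and 11.22 in siNC, and rose with the siRNA by 3.09 with an SE of 0.341 (limma, adjusted p = 0.000419). ADAM12, a membrane-bound and secreted metalloprotease known to cut IGFBP3 and IGFBP5, was at 11.02 and 11.09 in these siYT arrays, against 14.10 and 13.79 in the siNC arrays, and fell by 2.89 with an SE of 0.312 (limma, adjusted p = 0.000391). ADAMTS1, a metalloprotease of the ovulatory follicle, was at 9.26 in siYT+8Br-cAMP and 7.94 in siYT, against 10.03 in siNC+8Br-cAMP and 13.43 in siNC. It was lower in siYT than in siNC by 5.49 on the log2 scale, and with 8Br-cAMP it differed by -0.77. ADAMTS1 fell in the additive model with an SE of 0.798 although the 2 differences were far apart (limma, adjusted p = 0.0363). CTSD, the lysosomal protease cathepsin D, was 0.80 higher with and 1.21 higher without 8Br-cAMP (limma, adjusted p = 0.0775).

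IGFBP1, the binding protein known to respond to cyclic AMP in decidual cells, was at 11.07 in siYT+8Br-cAMP and 8.38 in siYT, against 11.68 in siNC+8Br-cAMP and 9.99 in siNC. It was 2.68 higher with 8Br-cAMP after siYT and 1.68 higher after siNC, and it rose by 2.18 with an SE of 0.344 (limma, adjusted p = 0.0104). Its siRNA differences were -0.61 with and -1.61 without 8Br-cAMP and did not pass (limma, adjusted p = 0.0768). IGFBP1 and IGFBP4 were the 2 binding proteins called higher with 8Br-cAMP after both siRNAs. Of the signalling genes, GRB10, an adaptor that restrains IGF1R, was called lower with 8Br-cAMP after both siRNAs (-1.37 after siYT and -1.07 after siNC; limma, adjusted p = 0.0847). IGF2BP3, which binds IGF2 mRNA, differed with 8Br-cAMP by -1.495 after siYT and -0.47 after siNC. SOS1, which activates RAS, differed with the siRNA by 0.54 with and 1.41 without 8Br-cAMP. FOXO1, a transcription factor that AKT restrains, differed with 8Br-cAMP by 0.55 after siYT and 1.28 after siNC, and the adaptor IRS1 differed with the siRNA by -1.10 with and 0.04 without 8Br-cAMP. The levels of FOXO1 and IRS1 straddle the level filter.

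**Figure D4:**
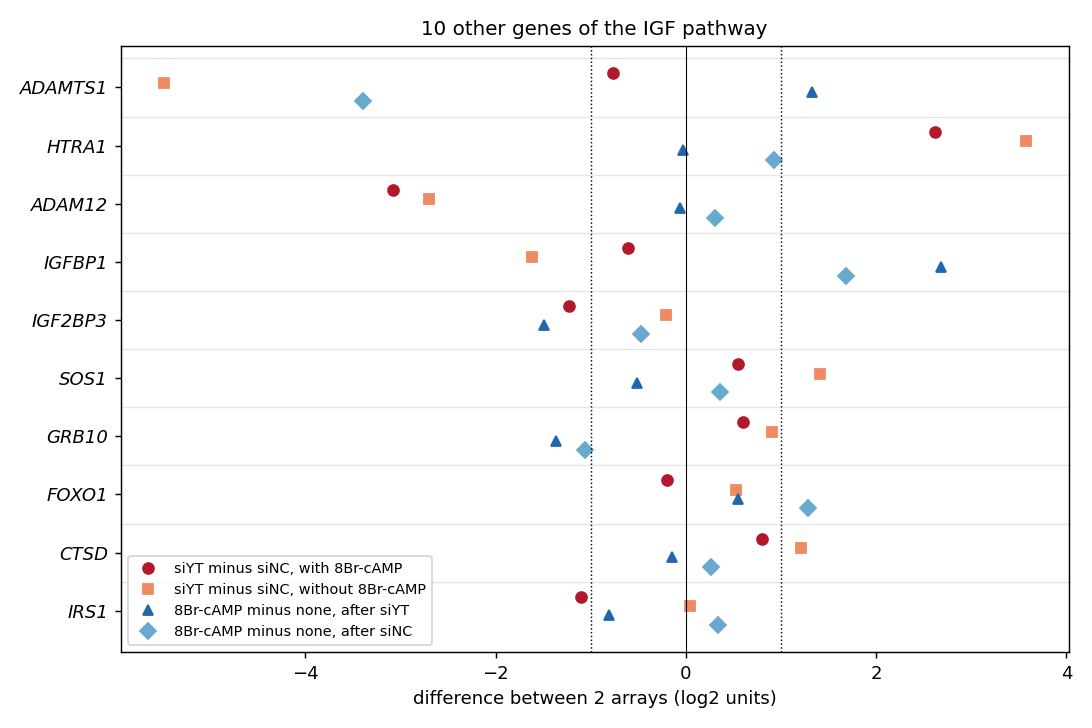
Differences between 2 arrays in log2 units (horizontal axis) for the 10 other IGF pathway genes with the largest called differences (vertical axis), with 1 marker for each of the 4 differences. Dotted lines mark a difference of 1 in either direction; HTRA1 and ADAM12 lie past them on opposite sides for both siRNA differences, and IGFBP1 lies past 1 for both 8Br-cAMP differences.

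Among the 9741 other genes past the level filter, those nearest in profile were ranked by the root mean square distance over the 4 arrays after each gene was centred on its own mean. This was done for the 3 genes with the widest ranges. For STC2, with a range of 3.77, the nearest were GFRA1, a receptor for glial cell line-derived neurotrophic factor (distance 0.03), NEMP1, a nuclear envelope protein (0.07), and SH2D4A, an SH2 domain protein (0.09). GFRA1 was under the level filter in siYT+8Br-cAMP, at 5.93, and under 6.95 in siYT, at 6.88, so its likeness to STC2 depends on the background. For IGFBP3, with a range of 2.86, they were PPIH, a spliceosomal peptidyl-prolyl isomerase (0.08), DKK1, a secreted Wnt antagonist (0.08), and ATAD5, which unloads PCNA from DNA (0.11). PPIH was under the level filter in both siYT arrays, and all levels of ATAD5 were under 6.95, so their likeness to IGFBP3 depends on the background. The 2 siRNA differences of DKK1 were -2.79 with and -1.16 without 8Br-cAMP, beside -2.86 and -1.05 for IGFBP3. For IGFBP4, with a range of 4.30, the nearest were farther off: PDE4D, a phosphodiesterase that breaks down cyclic AMP (0.41), SMOX, the spermine oxidase (0.44), and BDNF, a neurotrophin (0.44). A likeness over 4 arrays is a description of these arrays.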

How the data were processed

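RNA of KGN cells was measured on Clariom S Human arrays, 1 array for each of 4 groups. Per the labels, the authors made the deposited log2 values by RMA with the Affymetrix Expression Console. Software versions and a genome build are not given in the sources used here. Values ran from 1.39 to 19.4, above the log2 maximum of 16 of a 16-bit scanner. A further rescaling is therefore possible, and a fold computed from these units need not be a ratio of signals.

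Of 24351 probe sets, 17709 named exactly 1 gene in GEO's platform annotation. Those of the 20 genes with several were averaged, which gave 17687 genes. The 3739 probe sets that named no gene and 2903 controls were left out. The number of arrays limits the precision, and no replicate error exists. limma 3.58.1 in R 4.3.3 fitted the additive model. Its prior degrees of freedom were 9.24. Alternatives changed the level filter, the size of a call, the scaling between arrays, the compression of low values, the prior variance and the genes tested. All 10 members, the siRNA targets, up to 10 called genes of a pathway list and the nearest profiles were named by rule. The members and lists were chosen with earlier results of these data known. Promoter sequences are from RefSeq, and figures were drawn with matplotlib 3.10.9.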

Additional observations from a re-analysis of the deposited data

Results flagged for a closer look

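For 3 of the 10 genes, 2 arrays moved one way and the other 2 the opposite way under the same contrast, with a called difference of differences. With 1 array per group, none of these differences was tested between replicates. IGFBP2 was lower with 8Br-cAMP after siYT (-1.51) and slightly higher after siNC (0.26), and its siRNA difference was -0.05 with 8Br-cAMP and 1.71 without it, a difference of differences of -1.76 in either reading. IGFBP3 differed with 8Br-cAMP by -1.20 after siYT and by 0.61 after siNC, which gives -1.81. STC1 differed with the siRNA by -0.25 with 8Br-cAMP and by 1.10 without it, which gives -1.35. The values near 0, -0.05 and 0.26 for IGFBP2 and -0.25 for STC1, have a sign that 1 array per group cannot settle.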

How the results depend on the processing

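The size calls of the 10 genes were steady under most of the alternatives run, and 0 called differences changed sign. With 1.5-fold in place of 2-fold, 8 genes were called for 8Br-cAMP after siNC in place of 4. That size also raised the counts over all genes by 1.77 to 2.96 times across the 7 size-called results (for 8Br-cAMP after siNC 3517 in place of 1426), and without a level filter 2756 differences of differences were called in place of 1484. Across 200 recomputed differences of single genes, 2 lost their call (IGFBP3 without 8Br-cAMP on the positive controls, IGFBP5 with 32 added to the linear values) and 2 gained one (IGF1R on the positive controls). In the limma model the siRNA term called 4 genes in place of 2 on the positive controls (all genes: 2501 rose and 562 fell, in place of 760 and 826). With log2 of the linear value plus 32 it called 0 for the siRNA and 0 for 8Br-cAMP, with 4 and 5 of the 10 genes, and 3964 and 2769 of all genes, at an unadjusted p under 0.05. The cause was not tested. Under that setting the 5 genes called lost their calls, STC2 with an adjusted p of 0.0589 and the others with 0.169 to 0.219, while their estimates were 3.95 for IGFBP4, 1.84 for PAPPA, 2.01 for STC1, -2.87 for STC2 and -1.95 for IGFBP3, each within 0.1 of the value without the offset. For 8Br-cAMP the limma count over all genes was 321, and it was 515 with centring, 744 with cyclic loess (395 rose and 349 fell, in place of 204 and 117), 508 with a trend and 702 on filtered genes. No paired analysis of replicates was possible because each group has 1 array, and the additive model already compares the siRNAs within each medium. Levels under 6.95, those of IGFBP5, IGFBP6 and IGF2, are limited by the background.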
